A study of Mus musculus with 16 samples.

Results

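The 10 genes described here encode the soluble cargo and the peptide-processing enzymes of dense-core vesicles: the chromogranins Chga and Chgb, the secretogranins Scg2 and Scg3, the chaperone Scg5, the prohormone convertases Pcsk1 and Pcsk2, the carboxypeptidase Cpe, the amidating enzyme Pam, and the granin-like peptide precursor Vgf. They were chosen by gene symbol, and all 10 were found among the 53379 gene IDs of each of the 16 libraries. Each was protein coding and had the same coordinates in the deposited files as in the GENCODE M21 annotation of GRCm38. All 10 passed the filter on low values in both fractions. The filter was a mean deposited TPM (transcript abundance per length, scaled to a fixed total) of at least 1 over the IP or over the IN libraries.

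RNA came from dorsal root ganglia (DRG), which hold the cell bodies of sensory neurons, of naive mice aged 8 to 12 weeks. All mice, in every group, were Nav1.8Cre/Rosa26fstrap on a C57BL/6J background, so Cre under the promoter of Scn10a switched on a fusion of EGFP and ribosomal protein L10a in neurons that express, or have expressed, the sodium channel Nav1.8. The 4 groups were female IP, female IN, male IP and male IN, each with 4 libraries. IP is the RNA pulled down with the tagged ribosomes, a method called translating ribosome affinity purification, and IN is total RNA of the whole ganglion before any pulldown. A pool combined the ganglia from 3 same-sex animals, so no library is a single mouse, and the IP and IN libraries of a pool come from the same tissue. No group lacks the transgenes, and no pulldown from mice without the tag was analysed here. In bulk RNA, fewer cells of a type and less RNA per cell cannot be told apart.

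Protein-coding genes held 44.9% to 79.5% of the deposited TPM in IP libraries and 9.58% to 13.3% in IN libraries, so the deposited values of the fractions are not on 1 scale. Levels below are TPM brought to 1 scale by median-of-ratios factors, called scaled TPM. A log2 change is of scaled TPM with 1 added and stands with its standard error (SE) from limma. TPM keep no read counts, so sequencing depth is unknown here. Scn10a, the gene whose promoter drives Cre, had a lowest, median and highest level of 282, 388 and 444 in IP and of 108, 122 and 143 in IN. All 12 nociceptor markers rose in IP, with a summed level of 3563 to 5102 in IP and of 1436 to 1679 in IN. Of 11 markers of large-diameter neurons 10 fell and 0 rose. With the deposited TPM 6 of the 11 were higher and 5 lower, where 90.8% of all genes past the filter were higher. All 8 satellite glia and all 8 Schwann cell markers fell, of which 7 and 6 were lower with the deposited TPM. Markers of sympathetic neurons and chromaffin cells, which are also rich in granins, did not reach the filter (0 of 8 tested) and summed to at most 3.55 in any library. The IP library of female pool 2 stood apart: among IP libraries it had the lowest nociceptor sum (3563) and the highest Schwann cell sum (1019, against 395 to 818 in the other 7). The main results that rest on it are given with and without it.

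Dense-core vesicles store neuropeptides and release them on strong or repeated stimulation, along the axon and cell body as well as at terminals. Granins condense the cargo as the vesicle buds from the trans-Golgi network. Inside the maturing vesicle the convertases cut precursors at pairs of basic residues, carboxypeptidase E trims those residues from the new ends, and the amidating enzyme finishes many peptides. In sensory neurons this pathway makes calcitonin gene-related peptide and substance P, both of which are amidated.

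Sequence around the RefSeq starts is shown for the granins and convertases because members with a shared palindrome did not share a direction in IP. RefSeq promoter windows (GRCm38.p6, 250 bases before to 50 after a start) were matched for 8 of the 10 genes, all but Vgf and Cpe. TGACGTCA, a cyclic AMP response element (CRE), was found in 3 of the 8 genes, and in 1.79% of all 32851 windows. It lay at -72 in Chgb, -68 in Scg2 and -78 in Pcsk1, counted from the RefSeq start. The RefSeq starts of Chgb and Scg2 lie inside the gene spans of the deposited files, and so do the palindromes of these 2 genes, while that of Pcsk1 lies upstream of its span. The 5-base part TGACG, searched on both strands and contained in every TGACGTCA, was in 7 of the 8 genes and in 20.8% of windows. TATAAA on the gene strand was in Chga alone of the 8, at position 6 after the RefSeq start, and in 8.32% of windows. The gene span of Chga in the deposited files begins downstream of this TATAAA. Each line gives 30 bases on the strand of the gene, 5′ to 3′, with the matched letters in capitals.
Scg2, chr1:79440076-79440105, minus strand: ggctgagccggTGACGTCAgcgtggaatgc
Chgb, chr2:132781559-132781588, plus strand: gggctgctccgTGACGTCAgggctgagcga
Pcsk1, chr13:75089768-75089797, plus strand: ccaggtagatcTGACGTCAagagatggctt
Chga, chr12:102554886-102554915, plus strand: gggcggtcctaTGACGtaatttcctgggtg
Scg3, chr9:75684068-75684097, minus strand: cgctgggtcgcTGACGccatcctcacgcct
Pcsk2, chr2:143546085-143546114, plus strand: cgctggcgggcgcgCGTCAcccgggctggc
A match of letters is a description of the window. Of the 3 genes with the whole palindrome, Scg2 was higher in IP, and Chgb and Pcsk1 were lower in IP but not with the deposited TPM (values below).

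Against total ganglion RNA, the ribosome-bound RNA of Nav1.8 neurons held more of 8 of the 10 genes and less of 2. Scg2 and Scg3 rose the most, close to Scn10a itself. Vgf rose close to the median of the peptide precursors, and Cpe, Pcsk2 and Scg5 by somewhat less. Chga and Pam rose little, while Chgb and Pcsk1 fell. The fall of these 2 turned into a rise with the deposited TPM, where 90.8% of all genes tested were higher. With quantile normalization and with the protein-coding sum both stayed lower. All 10 were called at a limma adjusted p under 0.05. Of all 16099 genes tested 79.4% were called, 40.5% higher and 38.9% lower. The median log2 change was 0.77 over the 10 genes and 0.02 over all genes tested. With quantile normalization these medians were 0.48 and 0.15. There 6 of the 10 were called higher and 2 lower, and of all genes 49.3% and 31.3%.

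**Figure D1:**
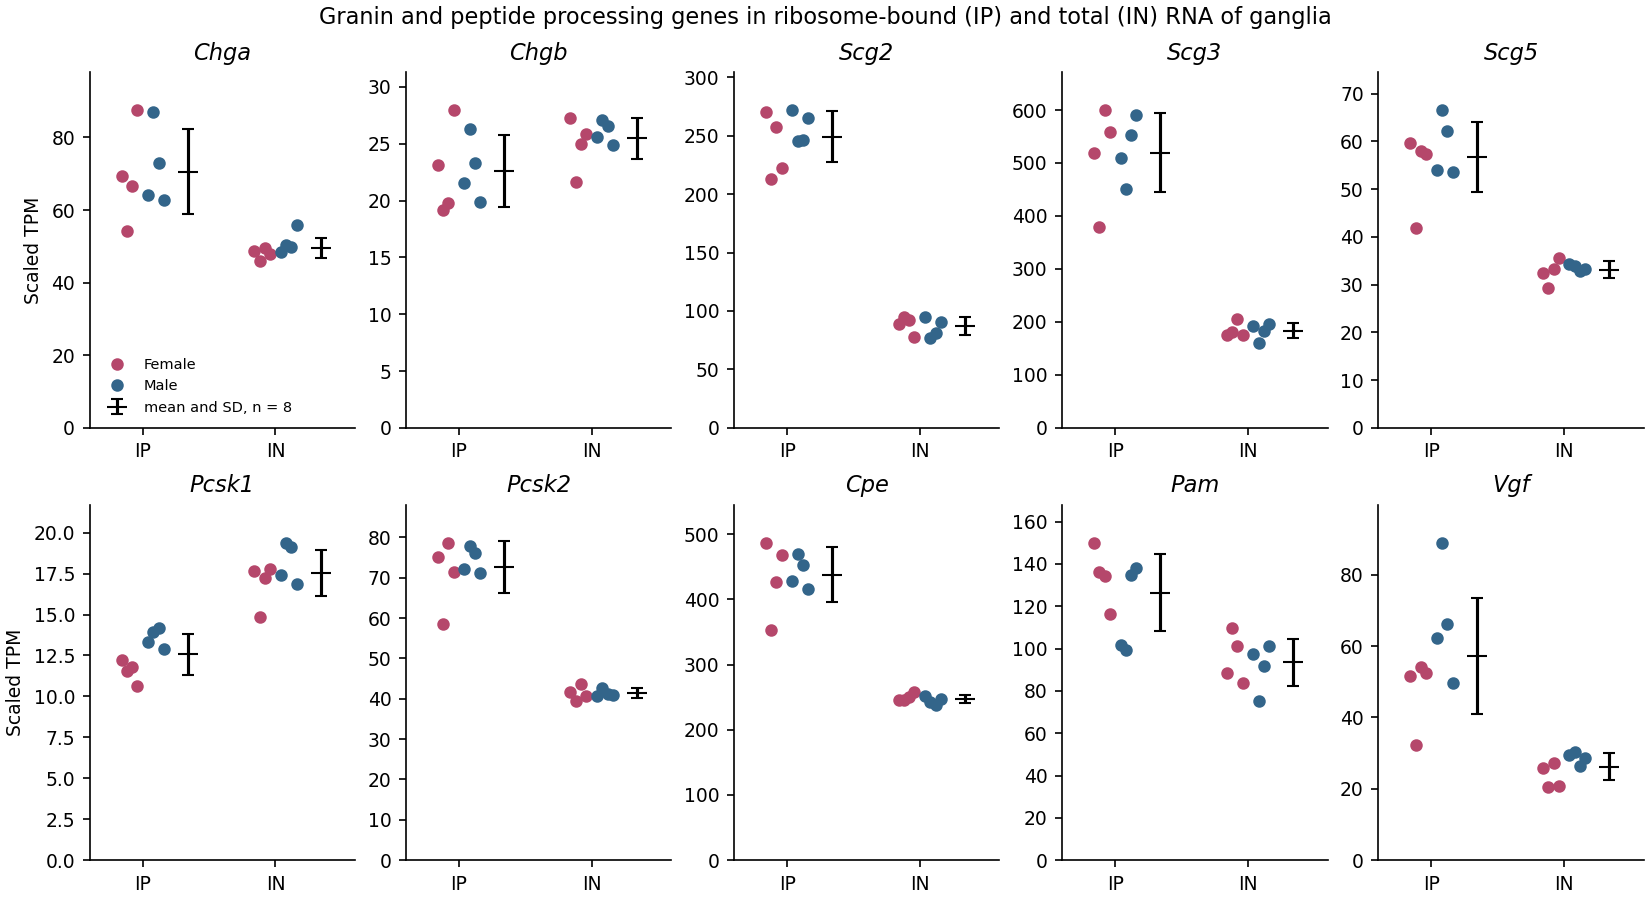
Level of each gene in the 8 IP and 8 IN libraries, as scaled TPM on axes that start at 0, with points coloured by sex and bars for mean and SD. The IP points lie wholly above the IN points for Scg2, Scg3, Scg5, Pcsk2, Cpe and Vgf and wholly below them for Pcsk1, whose direction, like that of Chgb, turns round with the deposited TPM.

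Among the granins, Scg2 and Scg3 set the pattern. Scg2 (ENSMUSG00000050711.7, chromosome 1, 79434669 to 79440120, minus strand, GRCm38 as for the other genes) encodes the precursor of secretoneurin. Its lowest, median and highest scaled TPM were 213, 251 and 272 in IP and 76.9, 89.7 and 95.1 in IN. The lowest IP library was far above every IN library. The mean was 2.85 times as high in IP (log2 1.50 ± 0.06, limma adjusted p = 4.4e-08), and the change was positive in 8 of 8 pools.

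Scg3 (ENSMUSG00000032181.7, chromosome 9, 75643189 to 75684056, minus strand) encodes a membrane-associated granin that binds chromogranin A and helps sort it. It was the most abundant of the 10 in IP, where its lowest, median and highest levels were 378, 536 and 599, against 159, 182 and 206 in IN. The groups were far apart, and the lowest IP value belonged to female pool 2. The ratio of means was 2.83 (log2 1.48 ± 0.07, limma adjusted p = 5.0e-08). Of all tested genes 99.6% had a smaller change than either Scg2 or Scg3, and the order of these 2 changes lay within their SE.

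The chromogranins behaved differently. Chga (ENSMUSG00000021194.6, chromosome 12, 102554969 to 102565028, plus strand) encodes chromogranin A, the acidic protein that aggregates with calcium in the vesicle. Its levels were 54.2, 68.0 and 87.5 in IP and 46.1, 49.1 and 55.8 in IN (lowest, median, highest). The groups overlapped at their edge, since the IP of female pool 2 was below the IN of male pool 4, but within each of the 8 pools IP was higher. The change was small (log2 0.49 ± 0.08, limma adjusted p = 0.00019), and it missed the threshold with quantile normalization (0.16, adjusted p = 0.058).

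Chgb (ENSMUSG00000027350.8, chromosome 2, 132781278 to 132795079, plus strand) encodes chromogranin B. It had 19.1, 22.3 and 27.9 scaled TPM in IP and 21.7, 25.7 and 27.3 in IN. The ranges overlapped widely, and 7 of 8 pools were lower in IP, all but female pool 4. The fit gave a small fall (log2 -0.17 ± 0.05, limma adjusted p = 0.010), but with the deposited TPM Chgb rose by 2.02, or 0.18 more than the median gene. It fell with quantile normalization (-0.29, limma adjusted p = 0.00019) and with the protein-coding sum (-0.40, 3.0e-05). Both chromogranins were highest in the IP libraries of female pool 4 (Chga 87.5, Chgb 27.9) and male pool 2 (Chga 87.1, Chgb 26.3).

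The convertases went opposite ways. Pcsk2 (ENSMUSG00000027419.9, chromosome 2, 143546156 to 143816285, plus strand) encodes the convertase that makes many of the smaller final peptides. Its levels were 58.5, 73.7 and 78.7 in IP and 39.5, 41.1 and 43.6 in IN, with a wide gap between the groups. The rise was 1.76-fold (log2 0.79 ± 0.04, limma adjusted p = 8.1e-08) and was seen in all 8 pools, at 0.56 in female pool 2 and 0.78 to 0.87 in the other 7. The antisense transcript Pcsk2os1 overlaps Pcsk2 and averaged 2.0 scaled TPM in IP and 1.73 in IN, while Pcsk2os2 is listed at 0 in every library. The strand setting of the authors' counting is not stated in the labels or files used here, so reads of Pcsk2 and Pcsk2os1 cannot be told apart.

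Pcsk1 (ENSMUSG00000021587.5, chromosome 13, 75089826 to 75134861, plus strand) encodes the convertase that makes the first cuts in many precursors. It was the least abundant of the 10, with 10.6, 12.6 and 14.2 scaled TPM in IP and 14.8, 17.5 and 19.4 in IN. Every IP library was below every IN library, by a narrow margin. The fall was 0.45 ± 0.05 on the log2 scale (limma adjusted p = 6.5e-06) and was seen in 8 of 8 pools. With the deposited TPM it became a rise of 1.69, which is 0.15 less than the median gene. Pcsk1 fell with quantile normalization (-0.45, limma adjusted p = 6.3e-06) and with the protein-coding sum (-0.67, 1.1e-06).

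Scg5 (ENSMUSG00000023236.7, chromosome 2, 113776362 to 113829121, minus strand) encodes the chaperone that the Pcsk2 convertase needs to become active. Its levels were 41.9, 57.7 and 66.5 in IP and 29.2, 33.2 and 35.5 in IN. The groups did not overlap, and the rise (log2 0.75 ± 0.05, limma adjusted p = 4.9e-07) held in all 8 pools.

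Of the enzymes that finish peptides, Cpe (ENSMUSG00000037852.8, chromosome 8, 64592542 to 64693054, minus strand) was abundant in both fractions. It had 353, 441 and 487 scaled TPM in IP and 238, 247 and 257 in IN. No IP library came near an IN library, and the IN values differed little among themselves. Cpe rose 1.77-fold (log2 0.81 ± 0.06, limma adjusted p = 6.1e-07). Its coefficient of variation over the 8 IN libraries, 2.28%, was the smallest of the 10 genes.

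Pam (ENSMUSG00000026335.16, chromosome 1, 97795114 to 98095646, minus strand) encodes the enzyme that amidates peptide ends. Its levels were 99.5, 134 and 150 in IP and 75.3, 94.6 and 109.6 in IN, so the groups overlapped. Each pool was higher in IP, by as little as 0.07 in male pool 1 and as much as 0.76 in female pool 1. The fit gave a rise of 0.43 ± 0.07 (limma adjusted p = 0.00017), but with quantile normalization it was 0.06 and not called (adjusted p = 0.33). The overlapping gene B230216N24Rik, on the same strand, averaged 0.350 scaled TPM in IP and 1.66 in IN.

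Vgf (ENSMUSG00000037428.14, chromosome 5, 137026392 to 137033351, plus strand) encodes a precursor of several secreted peptides and is inducible by nerve growth factor. It had 32.2, 53.3 and 89.0 scaled TPM in IP and 20.4, 26.8 and 30.3 in IN. The lowest IP library, female pool 2, was just above the highest IN library. The rise was 2.19-fold (log2 1.06 ± 0.09, limma adjusted p = 2.0e-06). Vgf was also the most variable of the 10, with a coefficient of variation of 28.6% over the IP libraries and 14.4% over the IN libraries.

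In 7 of the 10 genes the 8 IP and 8 IN libraries did not overlap, 6 above and 1 (Pcsk1) below, and 48.4% of all tested genes did the same, 22.4% above and 26% below. Without the libraries of female pool 2 the same 8 genes were higher and the same 2 lower, with Scg2 at 1.55, Scg3 at 1.55 and Vgf at 1.13. The part of the non-neuronal RNA in the smaller changes of that pool was not tested. In IP the 10 genes together made 0.477% to 0.578% of protein-coding TPM, and in IN 0.295% to 0.341%. Scg3 alone was 27.7% to 35.2% of that sum in IP and 21.01% to 24.4% in IN.

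The order of levels, which TPM allow because they are per length, differed between the fractions. In IP it was Scg3, Cpe, Scg2, Pam, Pcsk2, Chga, Vgf, Scg5, Chgb and Pcsk1. The ranges overlapped between Scg3 and Cpe, between Pcsk2 and Chga, between Chga and Vgf, and between Vgf and Scg5. Vgf was above Scg5 in only 3 of 8 IP libraries, and its median there was below that of Scg5. In IN the order was Cpe, Scg3, Pam, Scg2, Chga, Pcsk2, Scg5, Vgf, Chgb and Pcsk1, with overlap between Pam and Scg2, between Scg5 and Vgf, and between Vgf and Chgb. Scg3 was above Cpe in 7 of 8 IP libraries, and Cpe was above Scg3 in 8 of 8 IN libraries. Scg2 was above Pam in every IP library, and Pam was above Scg2 in 6 of 8 IN libraries. Chga and Pcsk2 also changed places, Pcsk2 being above Chga in 6 of 8 IP libraries and Chga above Pcsk2 in 8 of 8 IN libraries.

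Ratios of 2 genes within a library do not depend on the scaling between libraries, and here they are of deposited TPM. The ratio of Pcsk2 to Pcsk1 was 5.07, 5.55 and 6.71 in IP and 2.15, 2.35 and 2.66 in IN (lowest, median, highest). The ratio of Scg2 to Chgb was 7.95, 11.4 and 13.3 in IP and 2.84, 3.45 and 4.39 in IN. The ratio of Chga to Chgb was 2.83, 3.13 and 3.37 in IP and 1.79, 1.88 and 2.24 in IN. None of these 3 ratios overlapped between the fractions, and each was higher in IP in 8 of 8 pools. All ratios given here and below were chosen with earlier results known, and they restate the unequal log2 changes given above. The share of all gene pairs that do not overlap was not computed, and of single tested genes it was 48.4%.

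Scg3 was 5.17, 7.53 and 9.42 times Chga in IP and 3.17, 3.67 and 4.16 times in IN, again with no overlap. Cpe was 2.59, 3.30 and 4.72 times Pam in IP and 2.24, 2.59 and 3.23 times in IN, where the groups overlapped although all 8 pools went up. Other pairs overlapped widely between the fractions, with no test of the ratio. Pcsk2 to its chaperone Scg5 was 1.17, 1.3 and 1.40 in IP and 1.15, 1.26 and 1.35 in IN, higher in IP in 5 of 8 pools. Scg2 to Scg3 was 0.398, 0.485 and 0.563 in IP and 0.440, 0.471 and 0.525 in IN, higher in IP in 4 of 8 pools. These ratios show unequal change within the set and not that any gene was unchanged.

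**Figure D2:**
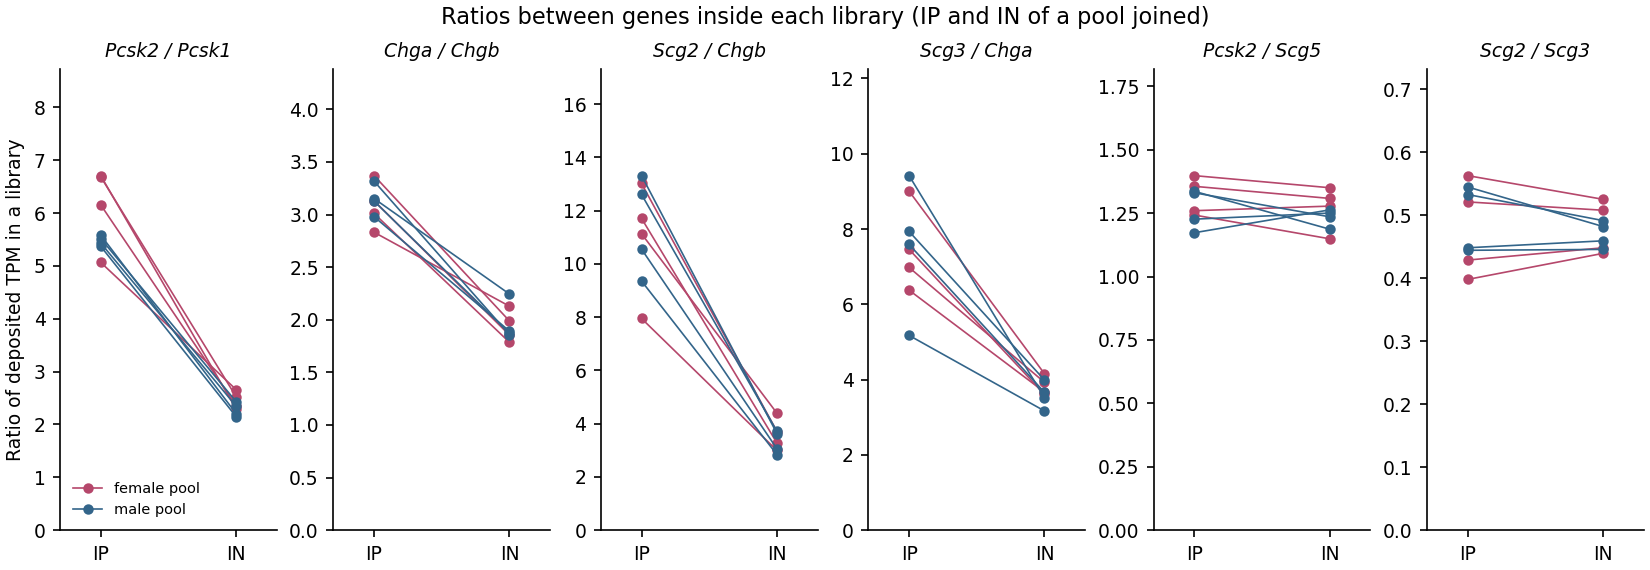
Ratio of deposited TPM of 2 genes within each library (vertical axes, no unit, from 0), IP and IN of each of the 8 pools joined by a line and coloured by sex. The ratios of Pcsk2 to Pcsk1, Chga to Chgb, Scg2 to Chgb and Scg3 to Chga are higher in IP in all 8 pools, while those of Pcsk2 to Scg5 and Scg2 to Scg3 cross in both directions.

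Within each sex the same contrast was fitted over 4 pools. In females 8 of the 10 genes were higher and 1, Pcsk1, lower, where 66.1% of 16115 genes were called (32.5% higher, 33.6% lower). In males 8 were higher and 2 lower, where 70.2% of 16061 were called (35.4% higher, 34.8% lower). The log2 change of Scg2 was 1.43 ± 0.10 in females (limma adjusted p = 0.00041) and 1.57 ± 0.07 in males (1.9e-05). That of Scg3 was 1.45 ± 0.13 in females (limma adjusted p = 0.00047) and 1.52 ± 0.08 in males (2.4e-05). Among the female IP libraries both were lowest in pool 2. Without that pool the female changes were 1.52 for Scg2 and, above the male value, 1.58 for Scg3.

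Vgf rose by 0.97 ± 0.11 in females (limma adjusted p = 0.00093) and by 1.16 ± 0.13 in males (0.00032). Pcsk2 rose by 0.76 ± 0.08 in females (limma adjusted p = 0.00060) and by 0.83 ± 0.06 in males (5.8e-05), and its chaperone Scg5 by 0.70 ± 0.08 in females (0.00081) and by 0.79 ± 0.08 in males (0.00022). Cpe rose by 0.78 ± 0.11 in females (limma adjusted p = 0.0017) and by 0.85 ± 0.08 in males (0.00019). For each of these 4 genes the 4 IP libraries of a sex lay above its 4 IN libraries, as they did for 29% of all tested genes in females and 30.3% in males. Without female pool 2 the female changes were 1.08 for Vgf, 0.82 for Pcsk2, 0.77 for Scg5 and 0.87 for Cpe. The Cpe value was then above that of males. Chga rose by 0.50 ± 0.11 in females (limma adjusted p = 0.0090) and by 0.47 ± 0.11 in males (0.0074), calls that were lost with quantile normalization (adjusted p = 0.13 and 0.28) and, in males, with the protein-coding sum (0.085).

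Chgb was the gene whose call differed. Its change was -0.15 ± 0.09 in females (limma adjusted p = 0.17) and -0.19 ± 0.07 in males (0.041), both of them positive with the deposited TPM. In males it missed the threshold in the fit that ignores the pools (adjusted p = 0.076), and also without male pool 1 (0.13), 3 (0.10) or 4 (0.14). The female value passed without female pool 4 (-0.24, adjusted p = 0.048). Pcsk1 was at -0.51 ± 0.08 in females (limma adjusted p = 0.0024) and -0.39 ± 0.06 in males (0.0013), again reversed with the deposited TPM. The Pam change was 0.49 ± 0.09 in females (limma adjusted p = 0.0054) and 0.36 ± 0.09 in males (0.013), and in males it was lost without pool 3 (0.30, adjusted p = 0.055). With quantile normalization neither Pam change passed (0.13 in females, adjusted p = 0.19, and -0.0084 in males, 0.93), nor did that of males with the protein-coding sum (0.12, 0.26). The difference between the sexes in the change of IP over IN was itself tested as an interaction. It called 0 of the 10 genes (3 of 16099 genes, 0.0186%, limma), with 0 of the 10 and 448 of all genes at an unadjusted p under 0.05. The smallest p among the 10 was that of Scg2, 0.23, for a difference of -0.14 ± 0.11 (95% interval -0.40 to 0.11). The widest interval of an interaction was that of Vgf, at -0.19 ± 0.18 (-0.61 to 0.23).

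The study asks about sex differences in ribosome-bound RNA of nociceptors. Female and male IP libraries differed in 0 of the 10 genes at a limma adjusted p under 0.05 (8 of 15992 genes, 0.05%), and 374 genes had an unadjusted p under 0.05, Pcsk1 and Vgf among them. Pcsk1 was 12.2, 11.6, 11.8 and 10.6 scaled TPM in the 4 female IP libraries and 13.3, 14.0, 14.2 and 12.9 in the 4 male ones. All female values were below all male values, as was the case for 138 of 15992 genes (0.863%). The difference was -0.22 ± 0.07 (95% interval -0.38 to -0.06, limma adjusted p = 0.9999).

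Vgf was 51.6, 32.2, 54.0 and 52.5 in the 4 female IP libraries and 62.4, 89.0, 66.1 and 49.5 in the 4 male ones. The ranges overlapped, with male pool 4 below 3 of the 4 female pools. The difference was -0.48 ± 0.21 (95% interval -0.95 to -0.0048, limma adjusted p = 0.9999), and -0.30 without female pool 2. In IN, Vgf was 25.7, 20.4, 27.3 and 20.7 in females and 29.6, 30.3, 26.3 and 28.7 in males. These ranges overlapped in 1 library of each sex, female pool 3 and male pool 3. The IN difference was -0.29 ± 0.10 (95% interval -0.52 to -0.05, limma adjusted p = 0.96).

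In IN 0 of the 10 genes were called (12 of 13591 genes, 0.0883%, limma), and 660 genes, Vgf alone of the 10, had an unadjusted p under 0.05. The other 8 genes had intervals in IP that included 0. The narrowest was that of Pcsk2, at -0.08 ± 0.10 (95% interval -0.30 to 0.15), and the widest that of Scg3, at -0.05 ± 0.16 (-0.42 to 0.32). In IN the Pcsk2 difference was -0.0034 ± 0.05 (-0.12 to 0.11). These intervals are what 4 pools per sex allow, and a p that misses the threshold does not show equal levels. No alternative setting called any of the 10 in a comparison of the sexes or in the interaction.

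**Figure D3:**
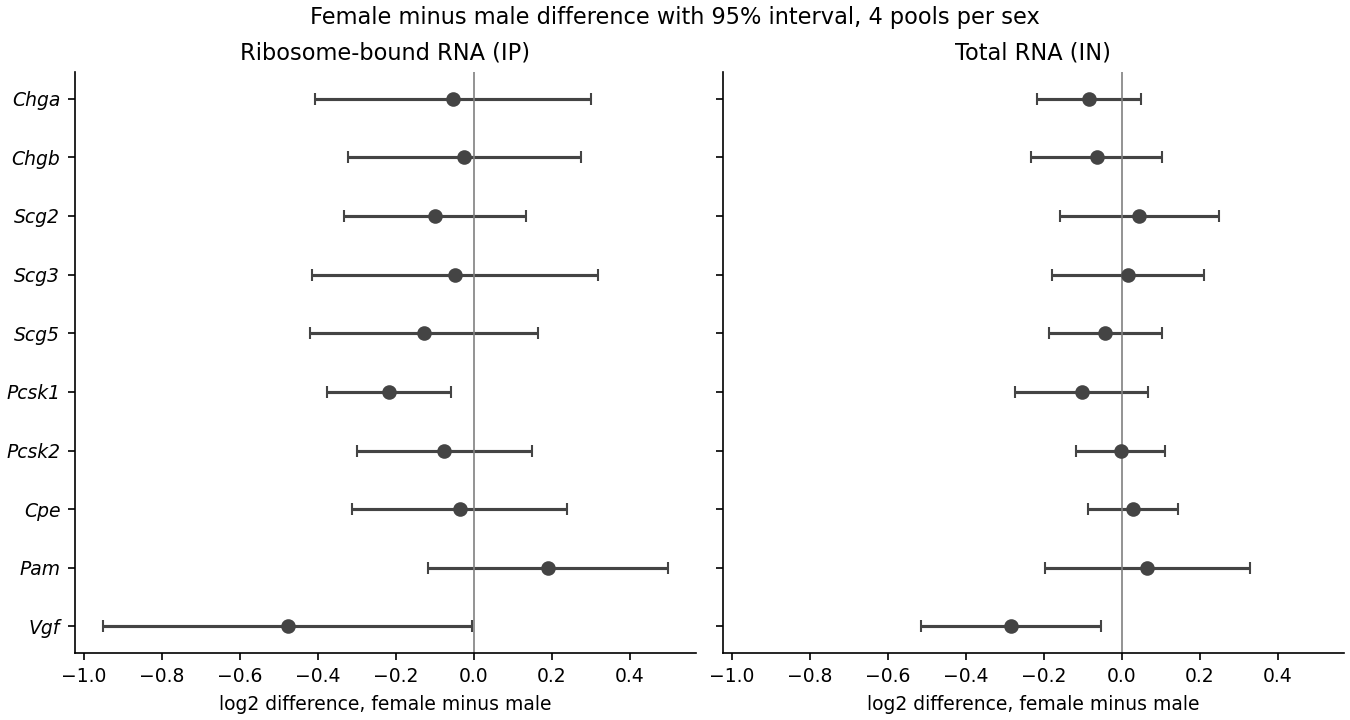
Female minus male log2 difference of each gene (horizontal axis, scaled TPM with 1 added) with its 95% interval, in IP on the left and in IN on the right, 4 pools per sex. The intervals of Pcsk1 and Vgf in IP and of Vgf in IN lie below 0 before adjustment for all genes tested, and the other intervals include 0.

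For each gene the 3 tested protein-coding genes of the most similar pattern were found by Pearson's r of log2 values over the 16 libraries, out of 12902 genes. The libraries share pools and fall into 2 fractions, and r is given as a description with no test. Among the 3 most like Scg2 were Adk (0.998) and Syngr3 (0.995). Scg3 was most like F2rl2 (0.994), Rras (0.994) and Dapk1 (0.993). Pcsk2 was most like the nicotinic receptor subunit Chrna7 (0.997), the potassium channel Kcnd1 (0.997) and Mrgprd, a receptor of non-peptidergic nociceptors (0.996).

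Among the 3 most like Cpe were Prcc (0.996) and the vesicle protein Syt5 (0.994), and Scg5 was most like Tmod1, Tceal9 and Mapk11 (0.988 each). Vgf was most like Itga3 (0.983), Ier3 (0.977) and Loxl4 (0.972). The values were lower for the genes with small changes. Chga was most like Vps18 (0.972), Ppfia3 (0.970) and Vasp (0.968), and Pam most like Gps1 (0.935), Tpst1 (0.921) and Rpap2 (0.908). Chgb was most like Naa30 (0.908), Rab11fip4 (0.907) and Nova2 (0.900). Pcsk1 was most like S100b (0.967), a calcium-binding protein of glia and large neurons, Shisa4 and Rom1 (0.963 each).

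Among genes around these 10, precursors of the peptides that the vesicles carry came first. Of 36 precursor genes of neuropeptides and of BDNF 12 passed the filter, each in both fractions. Of these 11 were higher and 1 lower (median log2 1.09), where 40.5% of all genes tested were higher and 38.9% lower (median 0.02). The other 24 were too low to test, with a mean that was higher in IP for 6 and lower for 13 and listed at 0 for 5. Nmb, the precursor of neuromedin B, averaged 289 ± 100 scaled TPM over the IP libraries and 54.1 ± 18.4 over the IN libraries (± SD of 8; log2 2.36 ± 0.21, limma adjusted p = 2.2e-06). Nppb, the itch-related natriuretic peptide precursor, rose by 1.98 ± 0.10 (6.4e-08) and Tac1, the precursor of substance P, by 1.53 ± 0.13 (1.3e-06). Calca, the precursor of calcitonin gene-related peptide, averaged 1584 ± 192 in IP and 556 ± 32.4 in IN. Its log2 change was 1.50 ± 0.08, close to those of Scg2 and Scg3, but with quantile normalization it was 3.16, against 1.18 for Scg2 and 1.34 for Scg3. Penk, the enkephalin precursor, averaged 0.999 ± 0.38 in IP and 4.41 ± 1.32 in IN, a fall of 1.42 (limma adjusted p = 7.2e-07) that was 0.07 and not called with the deposited TPM. Ucn3, Oxt, Avp, Hcrt and Iapp are listed at 0 in every library.

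Genes of vesicle assembly and release were mixed. Of 36 tested 23 were higher and 10 lower (median log2 0.46), where 40.5% of all genes tested were higher and 38.9% lower. With the deposited TPM all 36 were higher, where 90.8% of all 16099 genes were. The calcium sensor of release Syt5 rose by 1.84 ± 0.09 (limma adjusted p = 5.2e-08), to 66.1 ± 13.2 in IP, against 17.3 ± 0.83 in IN. Syt7, another calcium sensor of vesicle fusion, rose by 1.37 ± 0.11 (8.7e-07). Cadps2, a priming factor of dense-core vesicles, fell by 1.11 (limma adjusted p = 5.6e-08), to 3.56 ± 0.46 in IP, against 8.79 ± 0.37 in IN. Vps54, a subunit of a tethering complex at the trans-Golgi network, fell by 0.76, and like Cadps2 it was higher with the deposited TPM.

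Other processing genes divided evenly. Of 20 tested 6 were higher and 6 lower (median log2 0.05), where 40.5% of all genes tested were higher and 38.9% lower. The split was 17 and 2 with the deposited TPM, where the shares of all genes were 90.8% and 5.81%. It was 5 and 11 when scaled to the protein-coding sum, where the shares were 27.3% and 50.5%. Of the 20, 17 passed the filter in both fractions, 2 in IP alone and 1 in IN alone. Pcsk1n, the precursor of the inhibitor of the Pcsk1 convertase, averaged 205 ± 63.7 scaled TPM in IP and 56.0 ± 9.40 in IN. It rose by 1.80 ± 0.13 (limma adjusted p = 5.6e-07), while Pcsk1 itself fell except with the deposited TPM. The cathepsins Ctsl and Ctsb, proteases of the lysosome and in part of secretory vesicles, rose by 1.58 ± 0.08 and 0.90 ± 0.06. The carboxypeptidase-like gene Cpxm2 fell by 2.11, and the convertases of the constitutive pathway Pcsk6 and Pcsk5 had log2 changes of -1.68 and -1.48. All 3 were also lower with quantile normalization and the protein-coding sum, and with the deposited TPM Cpxm2 and Pcsk5 were lower while Pcsk6, at -0.18, was not called (adjusted p = 0.093).

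The list of peptide-degrading enzymes also divided, with 5 higher and 6 lower of 14 tested (median log2 -0.03), and 10 and 4 with the deposited TPM. Of all genes tested 40.5% were higher and 38.9% lower, and 90.8% and 5.81% with the deposited TPM. The filter was passed in both fractions by 13 of the 14 and in IN alone by 1. The endopeptidases Ece2 and Thop1 rose by 0.85 ± 0.06 each. The count of 5 includes Dpp10 (0.75 ± 0.08), a relative of dipeptidyl peptidases that has no peptidase activity and is a subunit of potassium channels. The surface peptidases Mme (neprilysin), Anpep and Ace fell, with log2 changes of -2.33, -1.81 and -1.66, and they were lower under each scaling. Of 11 tested transcriptional regulators of neuroendocrine and cyclic AMP responsive genes 1 was higher and 6 were lower (median log2 -0.66). The higher one, Insm1 (0.77 ± 0.06), passed the filter in IP alone, the fraction where it was higher. Fos also passed in IP alone and was called lower (-0.66, limma adjusted p = 0.00060). Another 8 passed in both fractions and 1 in IN alone. Rest, a repressor of neuronal genes, fell by 1.32 and Atf1, a CRE-binding factor, fell by 1.25. With the deposited TPM Rest was not called (0.21, adjusted p = 0.058), Atf1 was higher and 9 of the 11 were higher, where 90.8% of all genes were. In none of these 5 lists was a gene called between the sexes in IP or IN, or in the interaction (limma adjusted p under 0.05).

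**Figure D4:**
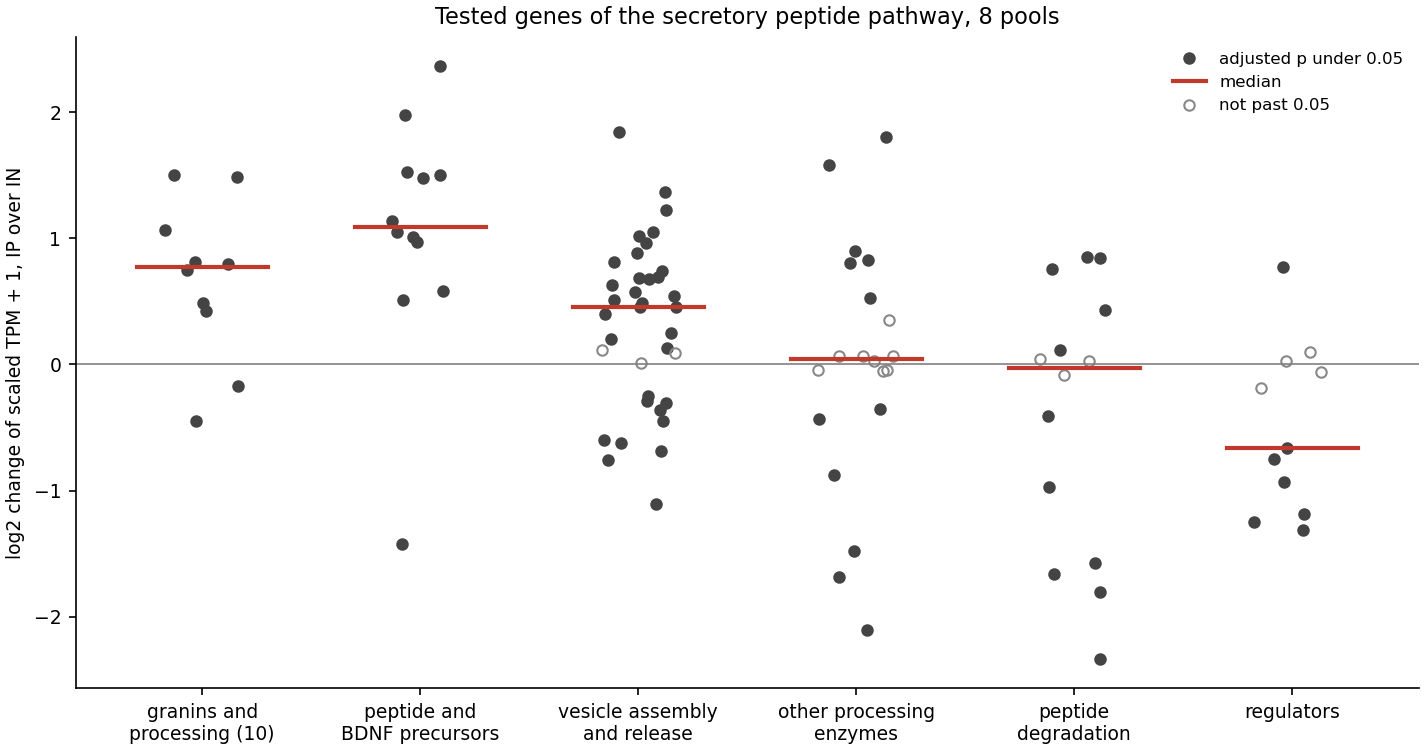
Log2 change of IP over IN (vertical axis, scaled TPM with 1 added, 8 pools) for each tested gene of the 10 described and of 5 related lists. Filled points passed an adjusted p of 0.05 and open points did not, and bars are medians, which run from 1.09 for peptide precursors and 0.77 for the 10 genes to -0.66 for regulators. With the deposited TPM most points, those of Chgb and Pcsk1 included, lie above 0, where 90.8% of all genes tested were called higher.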

How the data were processed

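RNA-seq values of 16 libraries were used. The submitters' processing notes name FastQC, STAR 2.2.1, StringTie 1.3.5 and the genome GRCm38.p5. No annotation release or strand setting was found in the labels or files. The authors deposited 1 value per gene, taken as TPM since a library adds up to 1000000 with its ERCC spike-in entries. Sequencing depth cannot be had from TPM. Libraries were depleted of ribosomal RNA, per the labels' protocols.

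Entries of 1 gene ID were summed. TPM were divided by median-of-ratios factors over 15907 genes (1.65 to 2.69 for IP, 0.375 to 0.532 for IN), and log2 of scaled TPM with 1 added was fitted across all genes with limma (3.58.1, on R 4.3.3; lmFit and a trended eBayes). Tests are two-sided, and p-values were adjusted by Benjamini-Hochberg over all genes of a comparison. The fit was tested on simulated data with few changed genes and no scaling step. That run does not bear on the choice of scaling or on a contrast where most genes are called. Adding 1 understates fold changes of low genes. IP against IN has the pool as a block, because the series design text pairs the libraries. As a check, deviations of the IP and IN libraries of a pool from their group means correlated across genes at 0.0136 to 0.414 in female and 0.00665 to 0.323 in male pools, and those of different pools of a sex at -0.279 to 0.201. For pool 1 of each sex another IP library had a higher value than its own. Female against male has no block. Intervals are 95% from the fit. Pools are of separate mice, per the design text.

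The 10 genes, the gene lists (textbook roles) and the ratios were chosen with earlier results of these data known. Named genes are the 10, up to 3 list genes with the largest called rise and fall each, any called in another comparison, and the 3 genes most like each of the 10. Calca was named after its values were seen, and some genes the rule allows are not reported here. Alternatives were other scalings, a pseudocount of 0.1, no filter, no trend, the other blocking and leaving out each pool. Promoter windows came from RefSeq.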

Additional observations from a re-analysis of the deposited data

Results flagged for a closer look

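In 40 groups of 4 libraries (10 genes in 4 groups), a library far from the other 3 was found in 2, both times the IP library of female pool 2. Chance alone gives about 1 in 20 such groups (5%), and 2 of 40 is that same share. Scg5 was at 41.88 scaled TPM in that library and between 57.44 and 59.6 in the other 3 female IP libraries. Vgf was at 32.15 there and between 51.61 and 54.01 in the others. The gap was 0.878 of the range for Scg5 and 0.89 for Vgf in Dixon's test at the 95% level. The same library had the highest summed level of Schwann cell, macrophage and skeletal muscle markers among the 8 IP libraries (1019, 26.7 and 193), and the part of these in the low values was not tested.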

How the results depend on the processing

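The 8 higher genes of IP against IN in both sexes remained called when each pool was left out, without the pool as a replicate block, without the filter or trend and with a pseudocount of 0.1. They also remained called with the protein-coding sum, but with quantile normalization only 6 did, all but Chga and Pam. The 2 lower genes remained called with both of these scalings. The median change of all genes was 1.84 with the deposited TPM, 0.15 with quantile normalization and -0.17 when scaled to the protein-coding sum, and the share of calls that were higher was 94%, 61.1% and 35.1%, against 51% as reported. Without the filter, 21019 of 35913 genes were called, 32.8% of them higher, against 12783 as reported. With the deposited TPM 0 of the 10 genes were lower in both sexes, in females or in males. Chgb then rose by 2.02 in both sexes, 1.91 in females and 2.12 in males, and Pcsk1 by 1.69, 1.50 and 1.87. In females, quantile normalization and the protein-coding sum gave 2 lower genes in place of 1, and leaving out a pool gave 1 to 2. In males, no intensity trend and no replicate block gave 1 lower gene in place of 2, and leaving out a pool gave 1 to 2; the gene was Chgb each time. Pam in males was -0.0084 with quantile normalization (adjusted p = 0.93). The cause of these changes was not tested. Of the single values of IP against IN over all alternatives 367 kept direction and call, 13 lost the call, 3 gained it and 7 reversed. The replicate block, added to the comparisons of the sexes by number alone, also called 0 of the 10 genes. With no read counts, what depth limits is unknown.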
